A study of Mus musculus with 12 samples.

Results

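Integrins and cadherins were followed as 50 genes of the 19938 measured on single-symbol probe sets, in cultured mouse cardiac fibroblasts with PDGF receptor signalling stimulated or inhibited. The members were all genes whose symbol is Itga or Itgb with a number or letter, or Cdh with a number, each on its brightest probe set. They comprised 18 integrin α genes, 9 integrin β genes and 23 cadherin genes, and no symbol of the rule lacked a probe set of its own. The rule used names only and no measured value, apart from the choice of the brighter probe set for Cdh18, Cdh24 and Itgad. The number pattern takes in more than the classical cadherins: beside 5 type I and 13 type II cadherins it holds Cdh13, Cdh16, Cdh17, Cdh23 and Cdh26, which differ from them in structure.

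The cells were cardiac colony-forming-unit fibroblasts (cCFU-F), sorted from hearts of 12-week-old male C57BL/6 mice as SCA1+PDGFRα+CD31- and grown as bulk cultures at passage P0. The 4 groups had 3 arrays each. PDGF-AB cultures received the ligand dimer PDGF-AB at 50 ng/ml, AG1296 10 uM and AG1296 1 uM cultures received those doses of the inhibitor, and untreated cultures received none. AG1296 is a small-molecule inhibitor of the PDGF receptor kinases that also acts on Kit. No source used here gives the treatment times or a vehicle, so a vehicle effect cannot be told apart from a treatment effect, and nothing says whether the arrays of a group came from separate cultures or animals. The p-values therefore measure only the spread between these arrays.

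Integrins are receptors made of an α and a β subunit that bind extracellular matrix outside the cell and, through talin and kindlin, the actin cytoskeleton inside it. The β1 subunit pairs with many α subunits, among them the collagen receptors α1, α2, α10 and α11 and the fibronectin receptor α5, whereas αv pairs with β1, β3, β5, β6 or β8. Classical cadherins join neighbouring cells by calcium-dependent binding and hold β-catenin, p120 catenin and α-catenin at their cytoplasmic tails. In cardiac fibroblasts, integrins carry tension between collagen and the cytoskeleton, and N-cadherin (Cdh2) and cadherin-11 (Cdh11) are the cadherins usually described.

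All values are log2 expression as deposited, and array medians over genes were 4.38 to 4.48. Within a group, r between arrays was 0.992 to 0.996, taken across genes, which are no independent replicates. PDGF-AB replicate 1 stood lowest in its mean r to the arrays of other groups, at 0.990. All 8 fibroblast markers, Pdgfra and Col1a1 among them, lay above the lowest array median in at least 1 group, as did 10460 of all 19938 genes. This does not test the fibroblast label, since PDGFRα was a sorting marker and many genes exceed the lowest array median. Of the marker lists for other cells, 2 of 9 endothelial, 2 of 10 leukocyte, 1 of 3 platelet, 2 of 7 cardiomyocyte, 2 of 7 pericyte and smooth muscle, 3 of 6 epithelial and mesothelial and 0 of 2 Schwann cell genes lay above it in at least 1 group.

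The promoter windows of the 4 genes that passed the test against untreated are given first, since 3 of them, Itga1, Itga11 and Itgb8, were higher with the inhibitor and the other, Itga5, was lower. Each window runs from 250 bases before to 50 bases after the gene's start, from RefSeq on GRCm38.p6, 5′ to 3′ on the gene's strand. The windows are chr13:115101915-115102214 on the minus strand for Itga1, chr9:62677605-62677904 on the plus strand for Itga11, chr12:119238227-119238526 on the minus strand for Itgb8 and chr15:103366742-103367041 on the minus strand for Itga5. Capitals mark the reverse complement of the GC box, GGGCGG.
Itga1: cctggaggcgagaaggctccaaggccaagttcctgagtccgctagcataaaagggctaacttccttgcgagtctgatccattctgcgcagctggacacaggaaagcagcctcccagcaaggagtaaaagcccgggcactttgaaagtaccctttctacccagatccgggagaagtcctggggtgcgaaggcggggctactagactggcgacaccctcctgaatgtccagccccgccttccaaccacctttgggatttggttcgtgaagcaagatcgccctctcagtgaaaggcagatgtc
Itga11: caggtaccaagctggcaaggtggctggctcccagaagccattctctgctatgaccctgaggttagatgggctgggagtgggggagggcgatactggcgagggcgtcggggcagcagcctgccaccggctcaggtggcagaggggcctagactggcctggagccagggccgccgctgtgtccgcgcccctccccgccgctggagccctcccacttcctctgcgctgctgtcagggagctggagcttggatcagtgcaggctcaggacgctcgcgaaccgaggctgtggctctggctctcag
Itgb8: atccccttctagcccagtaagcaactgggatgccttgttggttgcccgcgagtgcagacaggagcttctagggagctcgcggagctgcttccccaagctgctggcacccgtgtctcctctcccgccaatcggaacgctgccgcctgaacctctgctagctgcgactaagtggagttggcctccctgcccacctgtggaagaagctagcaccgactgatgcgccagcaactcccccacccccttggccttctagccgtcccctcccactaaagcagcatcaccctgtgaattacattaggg
Itga5: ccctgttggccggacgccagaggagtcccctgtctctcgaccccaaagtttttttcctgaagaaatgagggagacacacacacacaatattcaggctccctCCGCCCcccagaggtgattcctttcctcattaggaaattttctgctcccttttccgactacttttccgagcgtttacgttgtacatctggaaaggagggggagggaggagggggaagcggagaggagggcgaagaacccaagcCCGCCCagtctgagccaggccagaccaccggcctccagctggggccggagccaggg
The windows were searched on both strands for the AP-1 site TGANTCA, the TEAD site GGAATG, the GC box GGGCGG and the CArG box bound by SRF. The Itga5 window held 2 GC boxes, at -149 to -144 and at -6 to -1 from the start, and the Itga1, Itga11 and Itgb8 windows held none of these motifs. Of 32851 windows of the same length, 7.81% held the AP-1 letters, 14.7% the TEAD letters, 35.7% the GC box and 1.63% the CArG box. Windows were found for 32 of the 50 members.

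The members divided into 19 with a mean above the lowest array median (4.38) in at least 1 group and 31 below it in every group, where background limits any fold change. Above it were 11 integrin α genes, 4 integrin β genes (Itgb1, Itgb3, Itgb5 and Itgb8) and 4 cadherins (Cdh2, Cdh11, Cdh13 and Cdh24). The 31 dim members, with group means of 1.81 to 4.37, held all 5 leukocyte α subunits (Itgad, Itgae, Itgal, Itgam and Itgax), the leukocyte β subunits Itgb2, Itgb2l and Itgb7, the epithelial Itgb4 and Itgb6, the platelet subunit Itga2b and 19 of the 23 cadherins. Among these were E-cadherin, Cdh1, at 3.66 to 3.82, the endothelial VE-cadherin, Cdh5, at 2.91 to 3.09, and Cdh19, described in Schwann cells, at 2.77 to 3.12 over the 4 group means. Itgam lay at 2.39 to 2.55, Itgax at 2.45 to 2.53, Itgal at 2.62 to 2.82 and Itgb2, the β subunit shared by leukocyte integrins, at 3.01 to 3.17. None of the 31 passed in any comparison.

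Of the 50 members, 6 differed over the 4 groups, all of them above the floor: Itgb8, Itga1, Itga11, Itga5, Itgb3 and Cdh13 (limma moderated F test, Benjamini-Hochberg adjusted p under 0.05 over all genes). That is 12.0% of the members, where 5% of all genes passed the same test. Against untreated, 0 members passed with PDGF-AB (0.331% of all genes), 1 rose and 0 fell with AG1296 10 uM (1.88% of all genes, 1.21% higher and 0.672% lower) and 3 rose and 1 fell with AG1296 1 uM (3.2% of all genes, 1.88% higher and 1.33% lower). Between the AG1296 doses, 10 uM over 1 uM, 0 members passed (0.376% of all genes). At an unadjusted p under 0.05 there were 8 members with PDGF-AB (8.55% of all genes), 6 with AG1296 10 uM (11.4%), 15 with AG1296 1 uM (13.1%) and 5 between the doses (9.07%). The 3 comparisons with untreated share the same 3 untreated arrays.

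**Figure D1:**
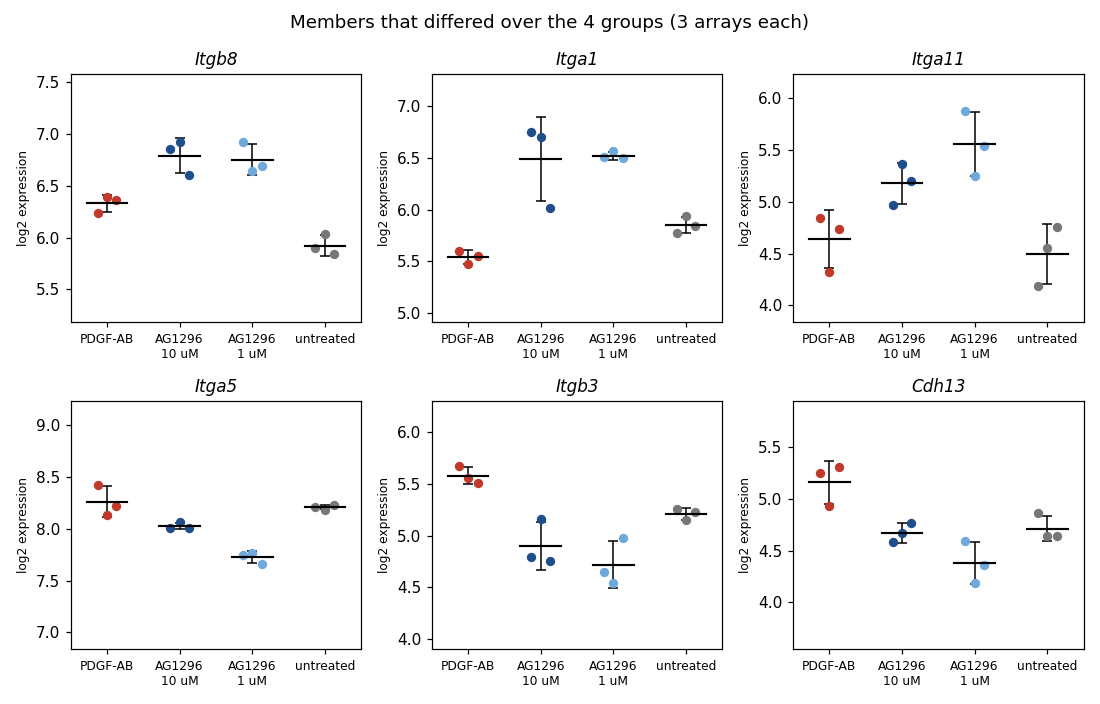
Log2 expression of Itgb8, Itga1, Itga11, Itga5, Itgb3 and Cdh13 on each array (points) of the PDGF-AB, AG1296 10 uM, AG1296 1 uM and untreated groups, with the mean (line) and SD (bar) of 3 arrays; every panel spans the same number of log2 units. Itgb8 lies highest in both AG1296 groups, Itga1 lies lowest with PDGF-AB, and Itgb3 lies highest with PDGF-AB.

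Itgb8 rose with both doses of the inhibitor. It encodes the β8 subunit, which pairs only with αv and binds the latent form of TGF-β. It was at 6.24, 6.39 and 6.36 with PDGF-AB, at 6.86, 6.92 and 6.60 with AG1296 10 uM, at 6.92, 6.64 and 6.69 with AG1296 1 uM, and at 5.90, 6.03 and 5.84 in untreated cells. Every treated array lay above every untreated one, and the PDGF-AB arrays lay between the untreated and the AG1296 arrays without overlap. The log2 fold change was 0.87 ± 0.11 (SE, n = 3 arrays per group) at 10 uM (limma adjusted p = 0.000636) and 0.83 ± 0.11 at 1 uM (adjusted p = 0.000541), a 1.82-fold and a 1.78-fold difference. The doses differed by 0.04 ± 0.11 (adjusted p = 0.954). With PDGF-AB the change of 0.41 ± 0.11 did not pass (adjusted p = 0.217). Both AG1296 calls held without any 1 of the 12 arrays. In bulk RNA, more cells of a type and more RNA per cell cannot be told apart.

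The collagen-binding α subunits had the largest median change with AG1296 among the integrin α groups compared, at both doses, with Itga11 and Itga1 changing most. Itga11 encodes α11, a receptor for fibrillar collagen made by fibroblasts. It was at 4.84, 4.32 and 4.74 with PDGF-AB, at 4.97, 5.37 and 5.20 with AG1296 10 uM, at 5.88, 5.25 and 5.54 with AG1296 1 uM, and at 4.19, 4.55 and 4.76 in untreated cells. All AG1296 arrays lay above all untreated arrays, while PDGF-AB and untreated arrays overlapped. Itga11 rose by 1.06 ± 0.19 at 1 uM (SE, n = 3; limma adjusted p = 0.00529), a 2.08-fold difference, and this call held without any 1 array. At 10 uM the change was 0.68 ± 0.19 (adjusted p = 0.0998). The doses differed by -0.38 (adjusted p = 0.577), so a smaller response at 10 uM was not shown. Its untreated mean of 4.50 lay close to the lowest array median, where background compresses fold changes.

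Itga1 encodes α1, a receptor for collagen IV and other collagens. It was at 5.60, 5.47 and 5.55 with PDGF-AB, at 6.75, 6.70 and 6.02 with AG1296 10 uM, at 6.51, 6.57 and 6.50 with AG1296 1 uM, and at 5.77, 5.94 and 5.84 in untreated cells. AG1296 10 uM replicate 3 lay well below the other arrays of its group but above every untreated array, and every PDGF-AB array lay below every untreated one. Itga1 rose by 0.68 ± 0.15 at 1 uM (limma adjusted p = 0.0269). That call ended without any 1 of the 6 arrays compared (adjusted p of 0.058 to 0.107), while the fold change stayed between 0.63 and 0.72. At 10 uM the change of 0.64 ± 0.15 fell just outside the threshold (adjusted p = 0.0507), and without AG1296 10 uM replicate 3 it was 0.88 (adjusted p = 0.000464). The change at 10 uM did not pass without any 1 of the other 11 arrays (adjusted p up to 0.21). With PDGF-AB Itga1 stood at -0.31 ± 0.15 (adjusted p = 0.606).

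The other collagen receptors moved less. Itga2, which encodes α2, had mean levels of 4.05 with PDGF-AB, 4.29 with AG1296 10 uM, 4.57 with AG1296 1 uM and 4.27 in untreated cells. Only the 1 uM mean lay above the lowest array median of 4.38. Its F test lay just outside the threshold (limma adjusted p = 0.0525). It passed with the replicate block (0.0422), after quantile normalization (0.0479), with array medians subtracted (0.0477) and without AG1296 1 uM replicate 3 (0.0102). It did not pass without any 1 of the other 11 arrays (up to 0.194) or in 3 of the 7 other alternatives (up to 0.0608). With dim genes left out it gave 0.0156. Itga2 stayed in that fit only through its 1 uM mean, so this value is no separate support. Itga10, described mainly in cartilage, was dim in all groups. Of the 4 collagen-binding α genes, 2 rose (Itga1 and Itga11) and 0 fell at 1 uM, where 1.88% of all genes rose and 1.33% fell. The median log2 fold change of the 4 was 0.49 where that of all genes was -0.01. At 10 uM 0 passed, where 1.88% of all genes did, with a median of 0.41 where that of all genes was 0.01. Itga1 and Itga11 had the largest changes at both doses, and Itga2 stood at 0.31 at 1 uM and 0.02 at 10 uM.

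Itga5 was the member that fell with AG1296. It encodes α5, which with β1 forms the main fibronectin receptor. It was at 8.42, 8.13 and 8.22 with PDGF-AB, at 8.01, 8.07 and 8.01 with AG1296 10 uM, at 7.75, 7.77 and 7.66 with AG1296 1 uM, and at 8.21, 8.18 and 8.23 in untreated cells. Arrays at 1 uM lay below those of every other group, and the 10 uM arrays lay between them and the untreated ones. Itga5 fell by 0.48 ± 0.09 on the log2 scale at 1 uM (SE, n = 3; limma adjusted p = 0.00772), a 1.39-fold difference, and the call held without any 1 array. The changes of -0.18 ± 0.09 at 10 uM (adjusted p = 0.486) and 0.05 ± 0.09 with PDGF-AB (adjusted p = 0.919) did not pass, and neither did the dose difference of 0.30 (adjusted p = 0.255). Itga8, another subunit that recognises the RGD motif of matrix proteins, had means of 4.31 with PDGF-AB, 4.60 with AG1296 10 uM, 4.16 with AG1296 1 uM and 4.60 in untreated cells and passed in no comparison.

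**Figure D2:**
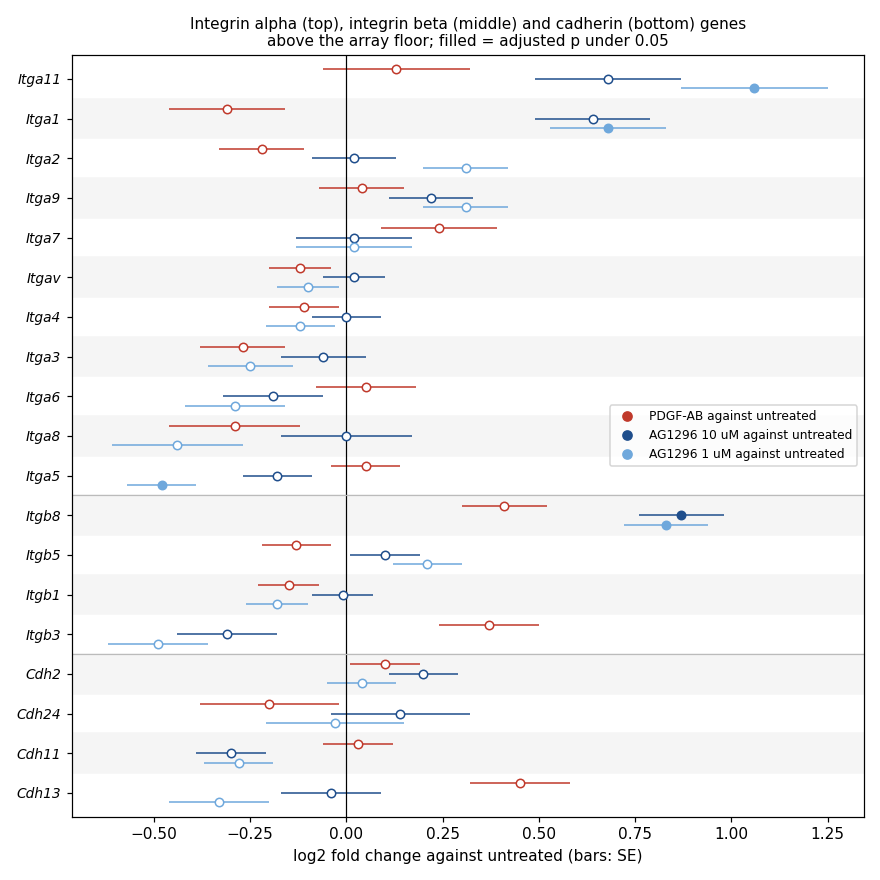
Log2 fold change against untreated (points, with SE bars) of the 19 members above the array floor, for PDGF-AB, AG1296 10 uM and AG1296 1 uM; integrin α genes are at the top, integrin β genes in the middle and cadherins at the bottom, and filled points have an adjusted p under 0.05. The filled points are Itgb8 at both doses and Itga11, Itga1 and Itga5 at 1 uM, and no PDGF-AB point is filled.

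Itgb3 and Cdh13 differed over the groups without passing against untreated. Itgb3 encodes β3, the partner of αv in the vitronectin receptor. It was at 5.67, 5.56 and 5.51 with PDGF-AB, at 4.79, 5.16 and 4.75 with AG1296 10 uM, at 4.65, 4.54 and 4.98 with AG1296 1 uM, and at 5.26, 5.15 and 5.23 in untreated cells. PDGF-AB arrays lay above all others, and the 1 uM arrays lay below all untreated ones. The F test gave an adjusted p of 0.00358 (limma), whereas the changes against untreated were 0.37 ± 0.13 with PDGF-AB (adjusted p = 0.393), -0.31 ± 0.13 with AG1296 10 uM (adjusted p = 0.360) and -0.49 ± 0.13 with AG1296 1 uM (adjusted p = 0.0590). The change at 1 uM passed without AG1296 10 uM replicate 2 (adjusted p = 0.0343) or AG1296 1 uM replicate 3 (0.0217). It also passed with dim genes left out (0.0207) and with an intensity trend and robust moderation (0.0296). It did not pass without any 1 of the other 10 arrays (up to 0.231) or in 6 of the 8 other alternatives (up to 0.0891). Itgb3 is also a platelet marker, and its platelet partner Itga2b was dim, at group means of 4.09 to 4.25.

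Cdh13 encodes T-cadherin, which is held in the membrane by a lipid anchor and lacks the catenin-binding tail. It was at 5.25, 4.93 and 5.31 with PDGF-AB, at 4.58, 4.67 and 4.77 with AG1296 10 uM, at 4.59, 4.19 and 4.36 with AG1296 1 uM, and at 4.86, 4.64 and 4.64 in untreated cells. The PDGF-AB arrays again lay above all others, and all groups were close to the floor. Its F test gave an adjusted p of 0.00957 (limma). The changes against untreated were 0.45 ± 0.13 with PDGF-AB (adjusted p = 0.244), -0.04 ± 0.13 with AG1296 10 uM (adjusted p = 0.952) and -0.33 ± 0.13 with AG1296 1 uM (adjusted p = 0.235).

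Because these 2 genes passed only in the F test, PDGF-AB was also compared directly with each AG1296 dose. Both comparisons were added after the values were seen. They share the same PDGF-AB arrays and reuse the AG1296 arrays of the comparisons with untreated, so their counts are no separate support. Against AG1296 1 uM, 8 of the 50 members passed, 3 higher and 5 lower with PDGF-AB, or 16.0% of the members where 5.21% of all genes passed (2.28% higher and 2.93% lower). The higher ones were Itgb3 by 0.86 ± 0.13 (SE; limma adjusted p = 0.000912), Cdh13 by 0.78 ± 0.13 (adjusted p = 0.00156) and Itga5 by 0.53 ± 0.09 (adjusted p = 0.00218). The lower ones were Itga1 at -0.99 ± 0.15 (adjusted p = 0.00119), Itga11 at -0.92 ± 0.19 (adjusted p = 0.00876), Itga2 at -0.53 ± 0.11 (adjusted p = 0.00972), Itgb8 at -0.42 ± 0.11 (adjusted p = 0.0379) and Itgb5 at -0.35 ± 0.09 (adjusted p = 0.0378). Itga2 lay below the floor with PDGF-AB, where background limits its fold change, and its call ended with only the 6 arrays compared (0.0520).

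Against AG1296 10 uM, 4 members passed, 2 higher and 2 lower with PDGF-AB, where 3.42% of all genes passed (1.42% higher and 2% lower). Itga1 stood at -0.95 ± 0.15 (limma adjusted p = 0.00217), Itgb3 at 0.68 ± 0.13 (adjusted p = 0.00768), Itgb8 at -0.46 ± 0.11 (adjusted p = 0.0321) and Cdh13 at 0.49 ± 0.13 (adjusted p = 0.0489). The calls for Itga1 and Itgb3 against both doses held without any 1 of the 12 arrays. The Cdh13 call against 10 uM ended without any 1 of 9 arrays (adjusted p up to 0.173), and the Itgb8 calls without any 1 of 5 arrays at 10 uM and of 8 arrays at 1 uM (up to 0.144 and 0.173). The Itgb5 call ended without any 1 of 8 arrays (up to 0.143), and the Itga2 call without AG1296 1 uM replicate 1 (0.0560). Cdh11 lay just outside the threshold with PDGF-AB, at 0.33 against 10 uM and 0.31 against 1 uM (limma adjusted p = 0.0720 and 0.0754). It passed after quantile normalization, with dim genes left out and with an intensity trend in the variance (0.0122 to 0.0368). It did not pass without any 1 of the 12 arrays (up to 0.218) or in 5 of the 8 other alternatives (up to 0.206).

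The members with the highest mean signal in each family were also examined. Itgb1, which encodes the β1 subunit common to the collagen, laminin and fibronectin receptors, was at 10.91, 10.92 and 11.01 with PDGF-AB, at 11.03, 11.18 and 11.06 with AG1296 10 uM, at 10.91, 10.92 and 10.93 with AG1296 1 uM, and at 11.09, 11.13 and 11.08 in untreated cells. All PDGF-AB and AG1296 1 uM arrays lay below the untreated ones. The F test gave an adjusted p of 0.367 (limma), and its largest change against untreated was -0.18 ± 0.08 at 1 uM (adjusted p = 0.320). Itgav, the αv subunit that pairs with β3, β5 and β8, was at 10.64, 10.68 and 10.83 with PDGF-AB, at 10.78, 10.91 and 10.87 with AG1296 10 uM, at 10.74, 10.75 and 10.74 with AG1296 1 uM, and at 10.89, 10.83 and 10.79 in untreated cells. The 1 uM arrays lay below the untreated and the 10 uM ones, and the other groups overlapped. The F test gave an adjusted p of 0.636. The partner subunits of the genes that changed, Itgb1 for Itga1, Itga11 and Itga5 and Itgav for Itgb8 and Itgb3, were thus not called in any comparison.

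Itgb5 encodes β5, which with αv binds vitronectin. It was at 9.82, 9.59 and 9.56 with PDGF-AB, at 9.89, 9.91 and 9.87 with AG1296 10 uM, at 10.05, 9.96 and 10.01 with AG1296 1 uM, and at 9.86, 9.79 and 9.72 in untreated cells. Both AG1296 groups lay above the untreated arrays, by 0.10 ± 0.09 at 10 uM (limma adjusted p = 0.779) and 0.21 ± 0.09 at 1 uM (adjusted p = 0.300). Itga4 encodes α4, a receptor for fibronectin and VCAM1. It was at 8.24, 8.51 and 8.46 with PDGF-AB, at 8.41, 8.62 and 8.53 with AG1296 10 uM, at 8.34, 8.41 and 8.45 with AG1296 1 uM, and at 8.46, 8.57 and 8.53 in untreated cells. Its F test gave an adjusted p of 0.728. Itga9, the subunit most related to α4, averaged 6.74 ± 0.24, 6.93 ± 0.05 and 7.02 ± 0.05 with PDGF-AB, AG1296 10 uM and AG1296 1 uM, and 6.70 ± 0.11 in untreated cells (SD, n = 3 each), and passed in no comparison.

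The laminin-binding subunits did not pass. Itga6 averaged 6.69 ± 0.21 with PDGF-AB, 6.45 ± 0.19 with AG1296 10 uM, 6.35 ± 0.12 with AG1296 1 uM and 6.64 ± 0.15 in untreated cells (SD, n = 3 each). Itga3 and Itga7 lay near the floor, with group means of 4.39 to 4.66 and 4.37 to 4.61. For PDGF-AB the median log2 fold change of the 3 genes was 0.05, for AG1296 10 uM it was -0.06, and for AG1296 1 uM it was -0.25.

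**Figure D3:**
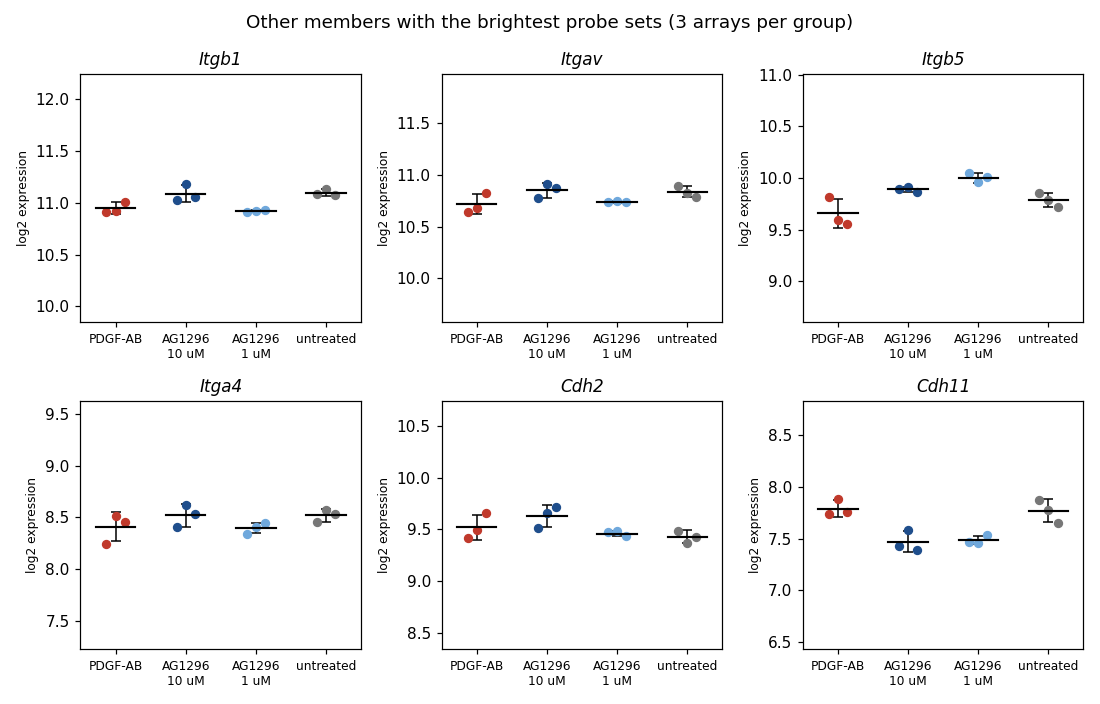
Log2 expression on each array (points), with the mean (line) and SD (bar) of 3 arrays, of Itgb1, Itgav, Itgb5, Itga4, Cdh2 and Cdh11 in the PDGF-AB, AG1296 10 uM, AG1296 1 uM and untreated groups, over the same number of log2 units as in the plot of the 6 members that differed. All 6 AG1296 arrays lie below all 6 other arrays for Cdh11, and the Itgb5 means run between 9.66 and 10.00.

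No cadherin passed against untreated. N-cadherin, Cdh2, was at 9.42, 9.49 and 9.66 with PDGF-AB, at 9.51, 9.66 and 9.72 with AG1296 10 uM, at 9.47, 9.48 and 9.44 with AG1296 1 uM, and at 9.48, 9.37 and 9.43 in untreated cells. The 10 uM arrays lay above the untreated ones by 0.20 ± 0.09 (limma adjusted p = 0.401), and the other groups overlapped with untreated. Cadherin-11, Cdh11, was at 7.74, 7.88 and 7.76 with PDGF-AB, at 7.43, 7.58 and 7.39 with AG1296 10 uM, at 7.47, 7.46 and 7.54 with AG1296 1 uM, and at 7.87, 7.78 and 7.65 in untreated cells. All 6 AG1296 arrays lay below all 6 others. The F test for Cdh11 lay just outside the threshold (adjusted p = 0.0597), with changes against untreated of -0.30 ± 0.09 at 10 uM (adjusted p = 0.147) and -0.28 ± 0.09 at 1 uM (adjusted p = 0.142). The F test passed after quantile normalization (adjusted p = 0.0251), with dim genes left out (0.0146) and with an intensity trend in the variance (0.00571). It did not pass without any 1 of the 12 arrays (up to 0.139) or in 4 of the 7 other alternatives (up to 0.116). Cdh24, a type II cadherin, lay near the floor at group means of 4.25 to 4.59. Against untreated, 0 of the 23 cadherins passed with PDGF-AB, AG1296 10 uM or AG1296 1 uM, where 0.331%, 1.88% and 3.2% of all genes passed and 19 of the 23 were dim, so a count of 0 is near the background. Their median log2 fold changes were 0.03, 0.07 and -0.03, where those of all genes were 0.01, 0.01 and -0.01.

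Of the adaptor and signalling genes that act on integrins inside the cell, most did not pass. A list of 48 adaptor and signalling genes of focal adhesions, of which 45 were measured, had 0 rises and 1 fall with PDGF-AB, 3 rises and 1 fall with AG1296 10 uM and 5 rises and 2 falls with AG1296 1 uM, where 0.331%, 1.88% and 3.2% of all genes passed. The list's median log2 fold changes were 0.00, 0.06 and 0.00. Both talins, which bind the β tails and switch integrins on, rose with the inhibitor. Tln2 was at 5.57, 5.56 and 5.84 with PDGF-AB, at 6.50, 6.68 and 6.70 with AG1296 10 uM, at 6.97, 6.79 and 6.88 with AG1296 1 uM, and at 5.78, 5.65 and 5.75 in untreated cells. It rose by 0.90 ± 0.10 at 10 uM (SE; limma adjusted p = 0.000247) and by 1.16 ± 0.10 at 1 uM (adjusted p = 1.28e-05), with no overlap between AG1296 and untreated arrays. Tln1 was at 7.73, 7.47 and 7.81 with PDGF-AB, at 8.22, 8.28 and 8.40 with AG1296 10 uM, at 8.20, 8.10 and 8.10 with AG1296 1 uM, and at 7.47, 7.41 and 7.40 in untreated cells. It rose by 0.87 ± 0.10 at 10 uM (adjusted p = 0.000247) and by 0.71 ± 0.10 at 1 uM (adjusted p = 0.000733). Actn1, the actin crosslinker α-actinin, rose by 0.46 ± 0.08 (adjusted p = 0.00611) and 0.50 ± 0.08 (adjusted p = 0.00219) at the same doses.

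Parvb, which encodes the actin-binding β-parvin of the integrin-linked kinase complex, fell by 0.63 ± 0.10 at 10 uM (limma adjusted p = 0.00487) and by 0.70 ± 0.10 at 1 uM (adjusted p = 0.00127). Its AG1296 arrays, with means of 3.84 and 3.77, lay below the array floor, against 4.46 in untreated cells. These 4 genes kept their calls at both doses without any 1 of the 12 arrays. Lims2, another protein of that complex, was the single adaptor called with PDGF-AB, at -0.52 ± 0.08 (adjusted p = 0.0144). Its call ended without PDGF-AB replicate 2 or 3 or without any 1 untreated array (adjusted p of 0.0572 to 0.0899). Kindlin-2 (Fermt2), vinculin (Vcl) and integrin-linked kinase (Ilk) had changes between -0.16 and 0.01 and did not pass. Zyx and Pxn, in the same list, stood at 0.37 and 0.32 at 10 uM (limma adjusted p = 0.0508 and 0.0689). They stood at 0.29 and 0.20 at 1 uM and did not pass against untreated, but passed in the F test (0.0246 and 0.0294). Of the 45 measured adaptor and signalling genes, 9 passed the F test, where 5% of all genes did.

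**Figure D4:**
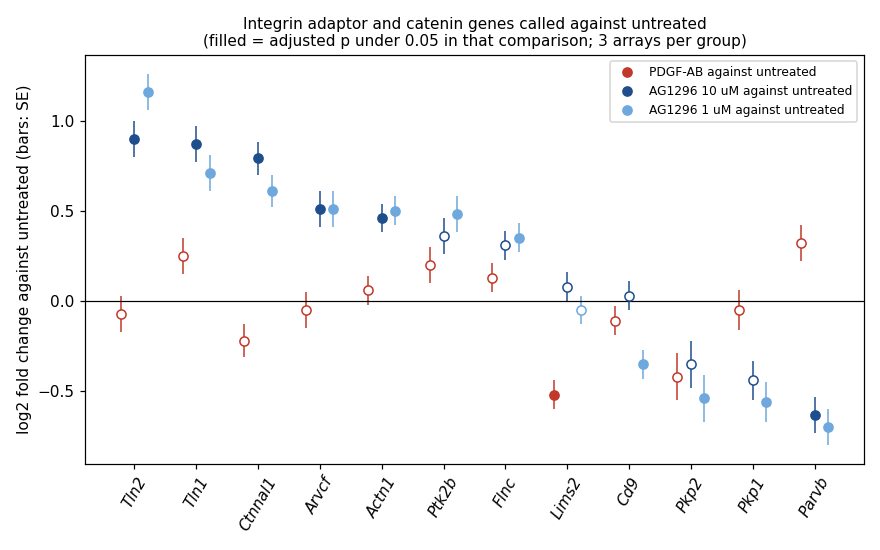
Log2 fold change against untreated (points, with SE bars) of the 12 integrin adaptor and catenin genes called with PDGF-AB, AG1296 10 uM or AG1296 1 uM, ordered by the change at 1 uM; filled points have an adjusted p under 0.05. Tln2, Tln1, Ctnnal1, Arvcf and Actn1 are raised at both AG1296 doses, Parvb is lowered at both, and Lims2 carries the only filled PDGF-AB point.

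Among 16 measured catenins and related armadillo proteins of 17 listed, 0 passed with PDGF-AB, 2 rose and 0 fell with AG1296 10 uM, and 2 rose and 2 fell with AG1296 1 uM, beside the same shares of all genes (0.331%, 1.88% and 3.2%). Ctnnal1, an α-catenin-like protein, rose by 0.79 ± 0.09 (limma adjusted p = 0.000291) and 0.61 ± 0.09 (adjusted p = 0.00127) at 10 uM and 1 uM. Arvcf, a relative of p120 catenin, rose by 0.51 ± 0.10 at each dose (adjusted p = 0.0156 and 0.0109), a call that ended without untreated replicate 2 at both doses (0.0847 and 0.0585), without AG1296 10 uM replicate 1 or 2 (0.0627 and 0.0830) and without AG1296 1 uM replicate 1 (0.0680). The desmosomal plakophilins Pkp1 and Pkp2 fell by 0.56 and 0.54 at 1 uM, and these calls ended without any 1 of 4 and of 8 arrays (adjusted p up to 0.0684 and 0.154). Ctnnb1 and Ctnnd1, which bind classical cadherins directly, and Ctnna1, which links them to actin, had changes between -0.19 and 0.18 in the 3 comparisons and did not pass. Jup, in the same list, stood at -0.09 with PDGF-AB and 0.27 at each dose and did not pass against untreated. Its F test passed (limma adjusted p = 0.0374). With PDGF-AB, Jup was lower than at 10 uM (-0.35, adjusted p = 0.0409) and 1 uM (-0.36, 0.0282), and Ctnnd1 was lower than at 10 uM (-0.31, 0.0479).

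Of the wider cadherin superfamily, with 36 of 39 listed genes measured, 0 rose and 1 fell with PDGF-AB, 1 rose and 1 fell with AG1296 10 uM and 0 passed with AG1296 1 uM. These counts are near the shares of all genes that passed, 0.331%, 1.88% and 3.2%. The protocadherin Pcdh18 stood at -0.48 ± 0.09 with PDGF-AB (limma adjusted p = 0.0361), and at 10 uM the calsyntenin Clstn1 stood at 0.38 ± 0.07 (adjusted p = 0.0161) and Pcdh19 at -0.51 ± 0.10 (adjusted p = 0.0174). These calls ended without any 1 of 10, of 5 and of 5 arrays, with adjusted p up to 0.172, 0.0726 and 0.0914.

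Among 39 measured matrix and cell-surface ligands of integrins of 44 listed, 1 rose and 0 fell with PDGF-AB, 11 rose and 2 fell with AG1296 10 uM, and 11 rose and 3 fell with AG1296 1 uM. Of all genes, 0.331%, 1.88% (1.21% higher and 0.672% lower) and 3.2% (1.88% higher and 1.33% lower) passed. The list's median log2 fold changes were 0.13, 0.21 and 0.03. The ligand of αvβ8 is latent TGF-β: Tgfb1 was at 6.15 ± 0.04 with PDGF-AB, 5.91 ± 0.05 with AG1296 10 uM, 6.01 ± 0.10 with AG1296 1 uM and 5.67 ± 0.04 in untreated cells (SD, n = 3 each), and Tgfb3 at 7.48 ± 0.10, 8.16 ± 0.08, 8.23 ± 0.05 and 7.82 ± 0.13 in the same order. Tgfb1 rose with PDGF-AB by 0.49 ± 0.08 (SE; limma adjusted p = 0.0222) and with AG1296 1 uM by 0.35 ± 0.08 (adjusted p = 0.0350), and Tgfb3 rose with AG1296 1 uM by 0.41 ± 0.09 (adjusted p = 0.0259). The PDGF-AB call for Tgfb1 ended without any 1 of the 6 arrays compared (adjusted p up to 0.120). The laminin gene Lama4 rose by 1.21 ± 0.09 at 10 uM (adjusted p = 2.01e-05) and 1.07 ± 0.09 at 1 uM (adjusted p = 1.29e-05). The collagen genes Col1a1, Col3a1 and Col4a1 rose by 0.53, 0.54 and 0.63 at 10 uM and by 0.51, 0.37 and 0.39 at 1 uM (adjusted p of 0.0033 to 0.048). Fbln5, an elastic fibre protein with an integrin-binding RGD motif, rose by 0.70 ± 0.08 at 10 uM (adjusted p = 0.000369) and 1.03 ± 0.08 at 1 uM (adjusted p = 5.99e-06). Icam1, which binds leukocyte integrins, rose by 0.66 ± 0.11 at 10 uM (adjusted p = 0.0055) and 0.95 ± 0.11 at 1 uM (adjusted p = 0.000191). The ligands that fell at 10 uM were Npnt and Thbs1, at -0.65 and -0.32 (limma adjusted p = 0.00653 and 0.0457). At 1 uM they were Vcam1, Npnt and Tnc, at -0.35, -0.45 and -0.32 (limma adjusted p of 0.0353 to 0.0449).

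Markers of other cells were set beside these results. Fibroblast genes moved with the inhibitor: 2 rose (Dcn and Col1a1) and 1 fell (Pdgfra) at each dose, and the mean over the 8 genes was 9.27 to 9.38 on PDGF-AB arrays, 9.40 to 9.44 on AG1296 10 uM arrays, 9.42 to 9.46 on AG1296 1 uM arrays and 9.21 to 9.30 on untreated arrays. The mean over the 3 measured platelet genes was 3.45 to 3.62, 3.47 to 3.49, 3.10 to 3.31 and 3.43 to 3.58 in that order. It was lowest with AG1296 1 uM, where Itgb3 also had its lowest group mean (4.72). Between the remaining groups the platelet means overlapped, whereas Itgb3 averaged 5.58 with PDGF-AB, 4.90 with AG1296 10 uM and 5.21 in untreated cells. All these platelet means lay below the array floor, and of the 3 genes only Pf4 lay above it in any group. The mean over the 9 endothelial genes was 3.46 to 3.70 on PDGF-AB arrays, 3.52 to 3.62 on AG1296 10 uM arrays, 3.50 to 3.66 on AG1296 1 uM arrays and 3.51 to 3.61 on untreated arrays. That over the 10 leukocyte genes was 3.66 to 3.76, 3.59 to 3.62, 3.65 to 3.68 and 3.61 to 3.68 in the same order. Leukocyte genes split with PDGF-AB, with the tetraspanin Cd53 higher by 1.77 and the adaptor Tyrobp at -0.53 relative to untreated cells, and Lyz2 stood at -1.02 with PDGF-AB against AG1296 10 uM and at -0.79 against 1 uM. The mean over the 7 pericyte and smooth muscle genes was 3.96 to 4.02 on PDGF-AB arrays, 3.96 to 4.04 on AG1296 10 uM arrays, 3.75 to 3.89 on AG1296 1 uM arrays and 3.70 to 3.81 on untreated arrays, so the first 2 groups lay above untreated. In that list Myh11 rose with AG1296 10 uM by 0.54, and Notch3 and Cspg4 were higher with PDGF-AB than with AG1296 1 uM by 0.54 and 0.66. The cardiomyocyte gene Tnnt2 was higher with PDGF-AB than with AG1296 10 uM and 1 uM, by 0.46 and 0.38, and the platelet gene Gp9 was higher with PDGF-AB than with AG1296 1 uM by 0.44. The endothelial receptor Tek was higher with AG1296 1 uM than in untreated cells by 0.73. Tek, Tyrobp, Gp9 and Cspg4 lay below the array floor in every group mean, where background limits any fold change. Cd53 lay above it only with PDGF-AB and Myh11 only with AG1296 10 uM. The endothelial, leukocyte and pericyte list means also lay below the floor. Epithelial and mesothelial genes split at AG1296 1 uM, with Upk3b higher by 0.55 and Krt19 at -0.72. The part of these other cells in the integrin and cadherin results was not tested.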

How the data were processed

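Gene expression was measured with 1-colour Affymetrix arrays on 12 RNA samples, labelled with the WT kit per the labels' protocols. Each probe set has 1 deposited log2 value per array. The authors used RMA and limma, per the submitters' processing notes, with no version or setting stated; the log base was inferred from how far the values extend. They entered the fit unchanged. Of 28853 probe sets, 5443 without a gene symbol in the platform table and 1621 with several were left out. The other 21789 gave 19938 genes, the brightest probe set standing for each.

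All 12 arrays entered 1 fit of a mean per group with limma 3.58.1 in R 4.3.3 (lmFit and eBayes, prior degrees of freedom 5.35, residual 8). Tests were two-sided, with Benjamini-Hochberg adjustment over all genes and a threshold of 0.05. The code was tested on simulated data. The number of arrays limits the precision. Members that passed and the 3 with the highest mean in each of the integrin α, integrin β and cadherin families were named with all values, together with members at an adjusted p of 0.05 to 0.1. Of each list, genes were taken from the 4 with the smallest adjusted p per comparison. Others were chosen after their values were seen. These were Tgfb1 and Tgfb3 at AG1296 1 uM, the collagen ligands, adaptors and catenins not called against untreated, and single markers. The members and lists were chosen with earlier results of these data known. Alternatives covered normalization, centring, probe set choice, dim genes (floor 4.38, the lowest array median), moderation, a replicate block, the arrays fitted, and leaving out each array.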

Additional observations from a re-analysis of the deposited data

How the results depend on the processing

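Under every alternative tried, 0 members were called with PDGF-AB against untreated and 0 between the AG1296 doses (limma). No fold change named above and refitted under an alternative changed its sign. With AG1296 10 uM against untreated the count of 1 was 2 after quantile normalization, 2 with the mean of probe sets per gene, 4 with dim genes left out and 4 with an intensity trend and robust moderation, the last 2 adding Itga1, Itga11 and Cdh11. It was 1 to 2 without any 1 array. With AG1296 1 uM the count of 4 was 6 with dim genes left out, which added Itgb3 and Cdh11. It was 7 with the trend, which added Itgb1, Itgb3 and Cdh11, and 3 to 5 without any 1 array. The F test count of 6 was 6 to 8 without any 1 array and up to 9 with dim genes left out. PDGF-AB against AG1296 10 uM gave 4 members, 2 with only the 6 arrays compared, 6 with the trend and 2 to 4 without any 1 array. PDGF-AB against AG1296 1 uM gave 8, 5 with only the 6 arrays compared, 9 with the trend and 5 to 8 without any 1 array. With the replicate block the counts were 0 with PDGF-AB, 1 with AG1296 10 uM, 4 with AG1296 1 uM, 0 between doses, 4 and 8 for PDGF-AB against AG1296 10 uM and 1 uM, and 7 in the F test, which added Itga2. Replicate numbers are not said to mark a shared source. Deviations correlated above 0.1 in 9 of 18 same-numbered pairs, 0 of 6 for number 1, 6 of 6 for number 2 and 3 of 6 for number 3, and 8 of 12 arrays correlated best with their own number, a hint from the data and not from the design. Over all genes, PDGF-AB against untreated gave 66 calls, 135 with dim genes left out, 160 with the trend, 7 with only the 6 arrays compared and 21 to 62 without any 1 array. AG1296 10 uM gave 375, 673, 686, 218 and 219 to 434, and AG1296 1 uM 639, 1016, 1010, 457 and 349 to 718, in the same order. The dose comparison gave 75, 172, 209, 14 and 16 to 82. Leaving out dim genes lowers the number of tests to 10460; the cause of the other shifts was not tested.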
